A study of Mus musculus with 10 samples.

Results

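The contractile unit of heart and skeletal muscle, the sarcomere, and the proteins that feed and time its contraction were followed through 42 genes in mouse lung and lung tumors. The genes were taken from a list of sarcomere, calcium handling, muscle energy and heart transcription factor genes, and each was read through the array probe whose accession gives that gene and whose mean over the 10 arrays was highest. All 42 had a probe, among 19096 genes with one. The list held 14 genes typical of the heart, 20 used by both heart and skeletal muscle, and 8 typical of skeletal muscle, and 15 of the 42 genes had more than 1 probe, 65 probes in all. RNA had come from the whole lungs of 5 mice labelled wild type (WT), which carry the floxed Lkb1 allele without Cre, and from 5 whole lung squamous cell carcinomas (SCC) of CCSPiCreLkb1f/f mice. The Cre recombinase of the latter is driven by the club cell secretory protein promoter, so Lkb1 is removed in airway epithelium. Both groups were labelled B6.129 in strain, carried floxed Lkb1, and were 13 months old, and no treatment was given. The deleted gene itself was not analysed here.

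In a sarcomere, thick filaments of myosin pull on thin filaments of actin. Calcium released from the sarcoplasmic reticulum binds the troponin complex on the thin filament and permits the pull, and titin, the Z-disc and the M-band hold the filaments in register. Heart, slow skeletal and fast skeletal muscle use different genes for many of these parts. In the mouse, the walls of the pulmonary veins inside the lung hold a sleeve of cardiac muscle continuous with that of the left atrium, whereas skeletal muscle is not a part of the lung.

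Labelled RNA had been hybridised to single-colour Agilent arrays, 1 per sample, and all levels below are log2 of the quantile-normalised spot signal, on which a difference of 1 is a 2-fold difference. A gene was called changed where limma gave a Benjamini-Hochberg adjusted p below 0.05 over all 30374 tested probes and the group means differed at least 2-fold. By this rule 13.0% of the tested probes were lower in SCC and 9.92% were higher. On 9 arrays, 71.0% to 74.5% of the probes were well above background, against 90.2% on SCC replicate 5. SCC replicate 2 correlated with the WT arrays at a mean r of 0.942 over probes, above the other tumors (0.854 to 0.902). The 7 measured squamous markers, keratin 5 and Trp63 among them, were called higher in SCC. Their median stood 7.53 log2 units above the WT mean on SCC replicate 2, against 10.79 to 11.12 on the other tumors. Nothing in the labels said whether 2 samples could share an animal, so p-values measure the spread between these samples.

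The muscle genes fell steeply in the tumors. Of the 41 genes that could be tested, 29 were called lower in SCC, 2 were called higher and 10 were not called, against the 13.0% and 9.92% of all tested probes. The heart genes were lower for 10 of 13 tested, with a median difference (SCC minus WT) of -2.27. The genes shared by heart and skeletal muscle were lower for 17 of 20, with a median of -3.64. Skeletal muscle genes split, with 2 lower and 2 higher among 8 and a median of -0.28, where the median over all tested probes was -0.09. The transcription factor gene Tbx20 was above background on 3 WT arrays and 1 SCC array and was not tested. Among the called genes, Csrp3, Actn2, Pln, Sln, Hrc and Ckmt2 were tested through their WT arrays alone, and Tnni1 through its SCC arrays alone. Probes above background on all 10 arrays do not depend on this. Among them, 9 of 12 heart genes, 9 of 10 shared genes and 2 of 6 skeletal genes were called lower, beside 11.4% of probes. In 11 of the 42 genes the mean was more than 16-fold lower in SCC, that is by over 4 log2 units, which 0.254% of tested probes reached. The size of some of these falls rests on the limit of detection, since Csrp3, Pln, Sln, Hrc and Ckmt2, 5 of the 11, were not above background on at least 2 tumors. Under the normexp background correction 1 of the 42, Sln, was still more than 16-fold lower, as were 0.0362% of probes. The median difference of the 29 genes called lower was -3.68, and -2.51 under normexp. Whole tissue was measured, so fewer muscle cells and less RNA per muscle cell cannot be told apart.

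**Figure D1:**
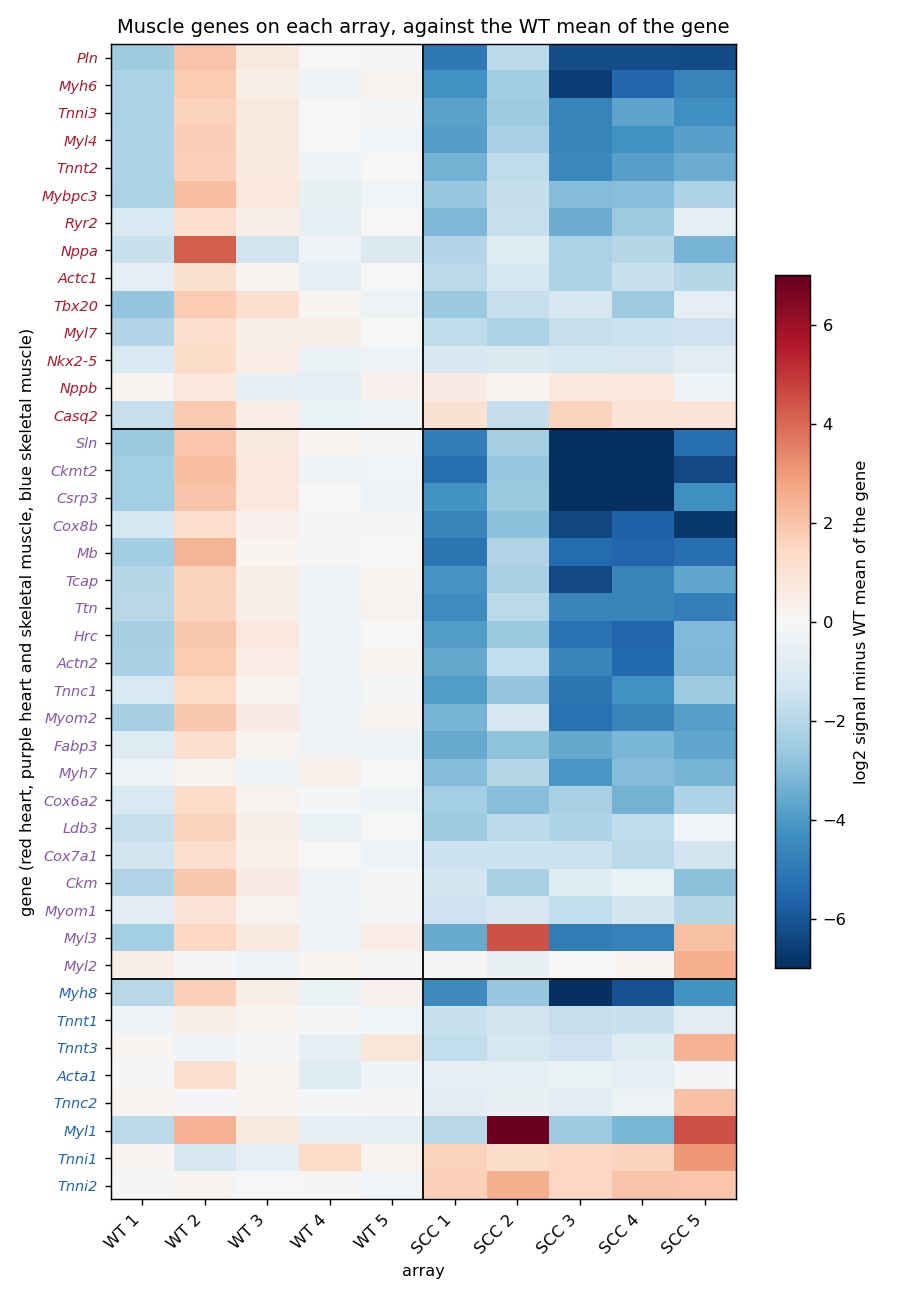
Log2 signal of each of the 42 genes (rows) on each of the 10 arrays (columns), minus the mean of that gene over the 5 WT arrays, with blue below and red above the WT mean. Most heart genes and shared genes lie below the WT mean on all 5 SCC arrays, and among the WT arrays replicate 2 lies above it and replicate 1 below it.

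The WT lungs differed widely from one another in these genes, and in a common order. WT replicate 2 gave the highest WT value for 37 of the 42 genes and WT replicate 1 the lowest for 34. The median gene spanned 3.47 log2 units over the 5 WT arrays, against 0.38 for all tested probes. A WT span of at least 3 units was seen for 24 of the 42 genes, and for 0.787% of tested probes. One order, with replicate 2 above 3, 3 above 4 and 5, and both of these above 1, held for 31 of the 42 genes and for 1.93% of tested probes. This order was chosen after the values were seen. Joined to a span of at least 3 units, it held for 22 of the 42 genes and 0.230% of tested probes. The order alone held for 10 of 14 heart genes, 18 of 20 shared genes and 3 of 8 skeletal genes.

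The 2 groups often touched, and not through the low WT replicate 1 alone. The groups did not overlap, with every SCC array below every WT array, for 16 of the 42 genes, where 20.9% of all tested probes were separated that way. SCC replicate 2 was the highest SCC array for 25 genes and lay above WT replicate 1 for 16. The shares of all tested probes that did so were not counted. The median of 6 endothelial genes stood at -1.39 against the WT mean on SCC replicate 2, and at -2.92 to -2.39 on the other tumors. SCC replicate 2 was thus the highest tumor outside the muscle genes too. Leaving out an array can only keep or raise the count of separated genes, and the arrays left out here were chosen after their values were seen. Without WT replicate 1 the count of separated genes was 30, where 22.4% of tested probes were separated in the same direction. Without SCC replicate 2 it was 24, against 29.9% of probes, and without SCC replicate 5 it was 21, against 22.7%. Without both WT replicate 1 and SCC replicate 2 it was 31, against 31.2%. Set against the WT mean of each gene, the median heart gene stood at -2.10 on WT replicate 1, inside the span of the 5 tumors (-2.62 to -1.68). Those same heart genes stood at -0.27 to 1.69 on the other 4 WT arrays. For the shared genes, WT replicate 1 stood at -1.96 and the tumors at -4.81 to -2.18.

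The slides bear on these calls, because WT replicates 1 to 4 lay on slide 1, SCC replicates 4 and 5 on slide 3, and only slide 2 held both groups. On slide 2, all 3 SCC arrays lay below WT replicate 5 for 34 of the 42 genes, 11 of 14 heart genes, 18 of 20 shared genes and 5 of 8 skeletal genes, as did 36.1% of all tested probes. With slide as a fixed block, 0 heart genes, 2 shared genes and 0 skeletal genes were called lower, and 5.22% of all tested probes were. Within slide 2 alone, with the spread taken from all arrays, the counts were 0, 4 and 1, and the share of all probes was 5.75%. Slides 1 and 3 each held 1 group, so both fits take the difference from slide 2 and give the same values. All 29 genes called lower over all arrays kept their negative sign there, and their median difference was -3.38, beside -3.68 over all arrays. The slide 2 arrays also took part in calling these genes, so the kept sign is not separate evidence. Both fits rest on WT replicate 5 as the 1 lung on that slide.

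The thick filament carried some of the largest differences. Of its 9 genes, 6 were called lower, none was called higher and 3 were not called, beside the 13.0% of tested probes called lower. Myh6, which encodes the alpha myosin heavy chain of the atria and of the adult mouse heart, read 10.06, 14.03, 12.77, 12.01 and 12.50 on WT replicates 1 to 5. In SCC replicates 1 to 5 it read 8.02, 9.84, 5.67, 6.80 and 7.62. Every tumor was therefore below every lung, by a mean of 4.68 log2 units (SCC minus WT -4.68, SE 0.86, adjusted p = 0.00158). That is 25.7-fold, and the second Myh6 probe gave -4.98. Within slide 2 the Myh6 difference was -4.66, and it was not called there (adjusted p = 0.0745).

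Myh7 encodes the beta myosin heavy chain of slow skeletal muscle and of the ventricle before birth. Its WT values, 13.94, 14.52, 14.01, 14.63 and 14.34, were close to one another, and did not follow the order that 31 of the 42 genes kept. Its SCC values were 11.26, 12.28, 10.20, 11.28 and 11.01. The groups were apart (-3.08, SE 0.33, adjusted p = 6.87e-05), and with Fabp3 and Tnni2 it was 1 of 3 genes called in every one of 24 alternative settings. Myh8 encodes the perinatal myosin heavy chain of skeletal muscle, and its probe read 10.49, 14.10, 12.87, 11.95 and 12.71 in WT and 8.02, 9.78, 5.22, 6.31 and 8.27 in SCC. Every tumor lay below every lung there (-4.90, SE 0.90, adjusted p = 0.00159). A second Myh8 probe, by contrast, was above background on no WT array and 1 SCC array, with values of 2.22 to 2.44. Myosin heavy chain genes are near copies of one another in long stretches, the probe sequences were not in the files used here, and which transcript the brighter Myh8 probe reads was not tested.

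Among the myosin light chains, which stiffen and regulate the myosin neck, the atrial forms fell. Myl4, the atrial essential light chain, lay between 10.43 and 14.27 in WT and between 7.99 and 10.31 in SCC, without overlap (-3.75, SE 0.68, adjusted p = 0.00144). Myl7, the atrial regulatory light chain, fell by 1.71 log2 units (SE 0.52, adjusted p = 0.0205). It spanned 12.50 to 15.76 in WT and only 12.32 to 13.08 in SCC, and WT replicate 1 lay inside the SCC values. Mybpc3, which encodes the cardiac myosin-binding protein C, was lower by 2.49 (SE 0.70, adjusted p = 0.0145). Myl2, the ventricular regulatory light chain, was dim throughout, at 4.25 to 5.04 in WT and 4.07 to 7.15 in SCC, and was not called (0.46, SE 0.51, adjusted p = 0.472). On 9 arrays, the lowest signal of any probe well above background was 3.81 to 4.32, so Myl2 lay near the limit of what the arrays detect. The essential light chains Myl1 and Myl3 took another course and are described below.

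On the thin filament, the cardiac troponins fell and the skeletal troponins did not move together. Of the 10 genes, 5 were called lower, 2 were called higher and 3 were not called, beside 13.0% and 9.92% of all tested probes. Tnnt2, cardiac troponin T, which ties the troponin complex to tropomyosin, read 11.21, 15.04, 14.07, 13.08 and 13.38 in WT and 10.04, 11.58, 8.85, 9.55 and 9.91 in SCC. SCC replicate 2 passed WT replicate 1, and the other tumors lay below all lungs (-3.37, SE 0.70, adjusted p = 0.00328). Tnni3, cardiac troponin I, the inhibitory subunit, lay at 9.84 to 13.66 in WT and 7.38 to 9.55 in SCC (-3.77, SE 0.66, adjusted p = 0.00124). Tnnc1, the calcium-binding troponin C of heart and slow muscle, lay at 7.91 to 10.31 in WT and 3.92 to 6.47 in SCC (-3.68, SE 0.56, adjusted p = 0.000555). Neither pair of groups overlapped. Tnnc1 was not above background on SCC replicate 3, and under normexp the Tnnc1 difference was -2.05. Actc1, the cardiac alpha actin, fell less (-1.77, SE 0.33, adjusted p = 0.00171), again without overlap, and its 5 WT values spanned 11.55 to 13.25.

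The skeletal genes of the thin filament showed each kind of outcome. Tnnt1, the slow skeletal troponin T, was lower in every tumor (-1.36, SE 0.20, adjusted p = 0.000414). Under normexp the Tnnt1 difference was -0.87 (adjusted p = 0.000347), too small for a call. Tnni2, the fast skeletal troponin I, read 9.64, 9.90, 9.65, 9.79 and 9.54 in WT and 11.38, 12.22, 11.16, 11.69 and 11.65 in SCC. It was the 1 gene of the 42 that lay above all lungs in every tumor (1.91, SE 0.18, adjusted p = 3.77e-05), where 16.3% of tested probes were separated in that direction. Tnni1, the slow skeletal troponin I, was above background on 1 WT array and on all 5 SCC arrays and was called higher (1.80, SE 0.49, adjusted p = 0.0132). It was tested through its SCC arrays, so its size rests on WT values near the limit of detection, and under normexp the Tnni1 difference was 0.36 (adjusted p = 0.0392), too small for a call. Its second probe was not well above background in any lung and was brighter in SCC by at least 1.73-fold, measured against the lowest detectable signal of each WT array. Acta1, the skeletal alpha actin (-0.50, SE 0.31, adjusted p = 0.205), Tnnt3, the fast skeletal troponin T (-0.57, SE 0.74, adjusted p = 0.541), and Tnnc2, the fast skeletal troponin C (-0.06, SE 0.49, adjusted p = 0.929), were not called. In Tnnt1, Tnni1, Acta1, Tnnt3 and Tnnc2, SCC replicate 5 gave the highest tumor value, and it is the array with the most probes above background. Whether that share bears on these values was not tested. Without SCC replicate 5, Tnnt3 was called lower, at -1.32, and its second probe was called lower on all 10 arrays (-1.04, SE 0.37, adjusted p = 0.0411).

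**Figure D2:**
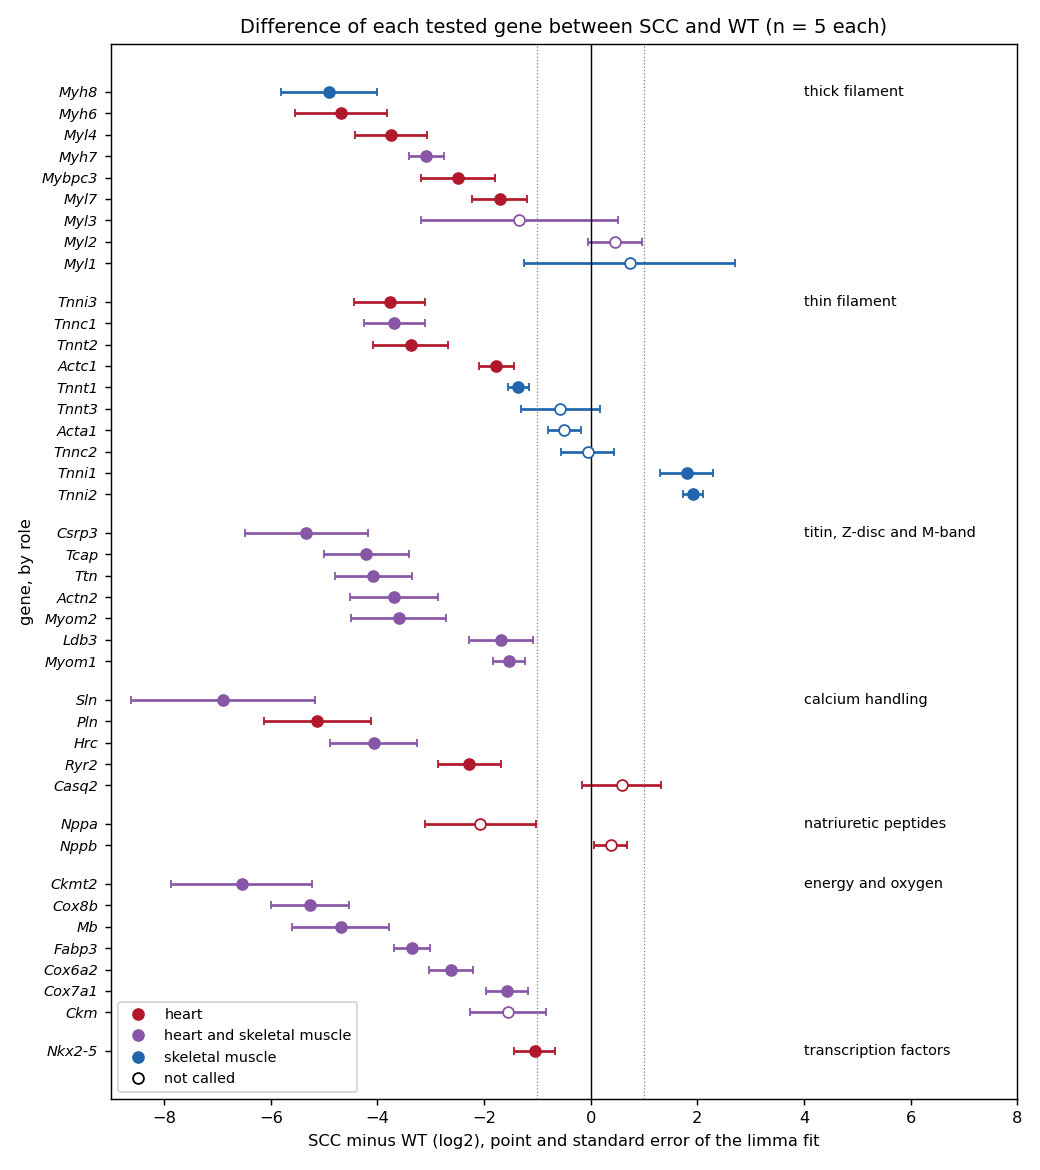
Difference between the SCC and WT means of each of the 41 tested genes on the log2 scale, with the standard error of the limma fit, grouped by role and coloured by the muscle the gene is typical of. Open circles are genes that were not called and dotted lines mark 2-fold. All 7 genes of titin, the Z-disc and the M-band lie left of zero, and the 2 genes called higher, Tnni1 and Tnni2, are skeletal troponin I genes.

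The scaffold that holds the filaments was lower as a whole, with all 7 of its genes called lower, beside 13.0% of tested probes. Ttn encodes titin, the giant spring that spans from the Z-disc to the M-band. It read 7.25, 10.75, 9.61, 8.91 and 9.45 in WT and 4.85, 7.30, 4.50, 4.56 and 4.38 in SCC. SCC replicate 2 stood above the other tumors and just above WT replicate 1 (-4.08, SE 0.72, adjusted p = 0.00128). Ttn was not above background on SCC replicate 3, and under normexp the Ttn difference was -2.29. Of 8 Ttn probes, 5 were tested, 4 of these were called lower, and the fourth brightest was not (-0.12, adjusted p = 0.895). Csrp3, the muscle LIM protein of the Z-disc, was at 8.04, 12.37, 11.14, 10.35 and 10.11 in WT and at 6.19, 7.79, 1.98, 3.29 and 6.09 in SCC. No tumor reached the lowest lung (-5.33, SE 1.15, adjusted p = 0.00396), and the gene was above background on 3 of the 5 SCC arrays.

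Tcap, or telethonin, which caps titin at the Z-disc, fell by 4.21 (SE 0.80, adjusted p = 0.00192), also without overlap. Actn2, the alpha-actinin that anchors thin filaments at the Z-disc, fell by 3.69 (SE 0.83, adjusted p = 0.00488), and Myom2, which links thick filaments at the M-band, by 3.60 (SE 0.89, adjusted p = 0.00788). In both, SCC replicate 2 lay above WT replicate 1. Actn2 was not above background on SCC replicates 3 and 4, so the size of its fall rests in part on values at the limit of detection, and under normexp the Actn2 difference was -1.85 (adjusted p = 0.00466). The differences of Myom1, the other M-band myomesin (-1.53, SE 0.29, adjusted p = 0.00195), and of Ldb3, a PDZ and LIM protein of the Z-disc (-1.68, SE 0.60, adjusted p = 0.0414), were smaller. The Ldb3 call was lost in 8 of the 10 fits that left out an array, with adjusted p from 0.012 to 0.0913 over those fits. These Ldb3 values come from the brightest of 3 probes, and the 2 dimmer probes were also called lower. Their differences were -2.65 (SE 0.49, adjusted p = 0.00174) and -3.60 (SE 0.65, adjusted p = 0.00139). The dimmer probes were above background on 2 and 1 of the 5 tumors, so their sizes rest in part on undetected values.

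Among the genes of calcium handling, several fell steeply. Sln encodes sarcolipin, an inhibitor of the calcium pump of the sarcoplasmic reticulum that is abundant in the atria and in some skeletal muscles. WT values were 10.28, 14.80, 13.53, 13.03 and 12.73, and SCC values were 8.02, 10.52, 1.94, 1.81 and 7.60. The tumors themselves spanned 8.71 log2 units, with SCC replicate 2 above WT replicate 1 and with SCC replicates 3 and 4 not above background. The difference was -6.90 (SE 1.72, adjusted p = 0.00825), and it was -8.03 without SCC replicate 2. Within slide 2 the Sln difference was -5.90 and was not called (adjusted p = 0.232), and the fit over all arrays with a fixed term for slide gave an adjusted p of 0.28. Pln, or phospholamban, the pump inhibitor of the ventricle and slow muscle, read 5.98, 10.48, 9.12, 8.41 and 8.30 in WT and 3.44, 6.55, 2.25, 2.23 and 2.20 in SCC. The difference was -5.12 (SE 1.01, adjusted p = 0.00232). Only SCC replicate 2 was above background there, so Pln was tested through its WT arrays and the size of its fall rests on tumor values at the limit of detection. Under normexp the Pln difference was -1.97 (adjusted p = 0.0042), still called.

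Hrc, the histidine-rich calcium-binding protein of the sarcoplasmic reticulum, fell by 4.07 (SE 0.82, adjusted p = 0.00263), and Ryr2, the cardiac calcium release channel, by 2.27 (SE 0.59, adjusted p = 0.0099). Hrc was not above background on SCC replicates 3 and 4. Under normexp the differences were -2.35 for Hrc and -1.22 for the Ryr2 channel, both still called. Casq2, cardiac calsequestrin, which stores calcium beside that channel, was the exception. In WT it followed the order of the other genes, at 5.83, 9.27, 7.96, 6.98 and 7.20. In SCC it read 8.50, 5.76, 9.09, 8.37 and 8.43, so that 4 tumors lay above 4 of the lungs and SCC replicate 2, the highest tumor for most genes, was the lowest. It was not called (0.58, SE 0.74, adjusted p = 0.532), and the difference was 1.15 without SCC replicate 2, where it was again not called.

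The sequences just before the annotated transcription start were compared because so many of these genes moved together on the same arrays. Windows of 250 bases came from RefSeq on GRCm38.p6, in which 36 of the 42 genes were found, with 44 start sites. Cox6a2, Myom2, Sln, Tcap, Tnni2 and Tnnt3 were not matched. Both strands were searched. The CArG box, the site known for serum response factor, lay in 7 of the 44 windows (15.9%, in Acta1, Actc1, Ldb3, Myl3, Myl7 and Myom1), against 1.47% of all 32851 windows. The MEF2 box lay in 4 (9.09%, in Casq2, Mybpc3, Myh8 and Ttn), against 2.92%. The MCAT element CATTCC lay in 20.5% against 12.6%, the E box CANNTG in 88.6% against 66.2%, and TATAAA in 18.2% against 12.4%. GATAA was in 25% against 22.6%, and the Nkx2-5 core AAGTG was in 40.9% against 40.7%. The E box and the Nkx2-5 core can share bases, as they did 200 bases before the Casq2 start. A match is a string of letters and not a site shown to be bound.

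The windows below show 4 genes that fell, from the thick filament, calcium handling, titin and actin, and 2 that were not called, Casq2 and Myl1. They are written 5′ to 3′ on the strand of the gene, ending at the base before the start, and capitals mark CArG, MEF2, MCAT and TATAAA matches.
Myh6 (chr14:54966608-54966857, minus strand): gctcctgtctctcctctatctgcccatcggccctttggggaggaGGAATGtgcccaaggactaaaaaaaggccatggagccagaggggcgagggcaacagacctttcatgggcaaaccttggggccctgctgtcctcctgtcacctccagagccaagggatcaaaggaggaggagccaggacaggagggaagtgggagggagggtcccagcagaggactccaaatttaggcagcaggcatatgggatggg
Pln (chr10:53337436-53337685, plus strand): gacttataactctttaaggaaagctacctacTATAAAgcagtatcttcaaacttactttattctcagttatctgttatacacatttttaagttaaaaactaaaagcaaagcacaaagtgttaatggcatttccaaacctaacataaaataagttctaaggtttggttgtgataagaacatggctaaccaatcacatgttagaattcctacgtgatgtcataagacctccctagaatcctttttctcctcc
Ttn (chr2:76982548-76982797, minus strand): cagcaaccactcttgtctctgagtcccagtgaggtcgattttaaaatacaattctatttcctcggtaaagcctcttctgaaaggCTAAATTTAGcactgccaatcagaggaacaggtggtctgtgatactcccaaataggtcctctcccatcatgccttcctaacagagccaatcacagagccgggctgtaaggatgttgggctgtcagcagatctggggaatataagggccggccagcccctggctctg
Actc1 (chr2:114052876-114053125, minus strand): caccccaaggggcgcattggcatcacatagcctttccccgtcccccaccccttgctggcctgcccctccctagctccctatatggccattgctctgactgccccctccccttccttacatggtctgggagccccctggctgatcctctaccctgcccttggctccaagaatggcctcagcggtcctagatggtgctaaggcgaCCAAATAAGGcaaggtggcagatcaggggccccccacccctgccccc
Casq2 (chr3:102086165-102086414, plus strand): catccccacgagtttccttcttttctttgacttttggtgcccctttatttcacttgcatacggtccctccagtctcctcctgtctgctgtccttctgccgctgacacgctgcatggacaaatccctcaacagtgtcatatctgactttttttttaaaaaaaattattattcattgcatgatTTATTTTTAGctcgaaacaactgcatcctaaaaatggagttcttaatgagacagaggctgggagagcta
Myl1 (chr1:66945057-66945306, minus strand): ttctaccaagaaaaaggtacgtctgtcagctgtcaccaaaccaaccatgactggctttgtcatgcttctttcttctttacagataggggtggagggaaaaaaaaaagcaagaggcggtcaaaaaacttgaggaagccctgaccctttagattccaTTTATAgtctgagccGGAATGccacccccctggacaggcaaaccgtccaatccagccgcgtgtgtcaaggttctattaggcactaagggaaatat
Actc1 carried the CArG box 47 to 38 bases before its start. Ttn and Casq2 both carried a MEF2 box, at 166 to 157 and at 69 to 60 bases before the start, though Ttn was called lower and Casq2 was not. Myh6 and Myl1 both held an MCAT element on the opposite strand.

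Neither natriuretic peptide gene was called. Nppa, which encodes the atrial peptide secreted by stretched atrial muscle, read 12.29 on WT replicate 2 and 6.46, 6.64, 7.80 and 7.02 on WT replicates 1, 3, 4 and 5. Its SCC values were 6.01, 7.16, 5.83, 6.07 and 4.78. Away from WT replicate 2 the groups overlapped, with SCC replicate 2 above WT replicates 1, 3 and 5. The difference was -2.07 (SE 1.04, adjusted p = 0.125), and it was -1.01 without WT replicate 2. WT replicate 2 was also the highest lung by the second Nppa probe, at 9.75 against 3.26 to 5.14. Nppb, the related peptide of the ventricle, lay at 4.82 to 6.23 in WT and 5.15 to 6.19 in SCC (0.38, SE 0.31, adjusted p = 0.331).

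Genes that supply energy and oxygen to contracting muscle fell with the scaffold, 6 of 7 being called lower, beside 13.0% of tested probes. Ckmt2, the mitochondrial creatine kinase of sarcomeric muscle, read 8.60, 13.10, 11.70, 10.75 and 10.79 in WT and 5.72, 8.36, 1.72, 1.72 and 4.69 in SCC. The highest tumor stayed under the lowest lung, and 3 of 5 tumors were above background (-6.55, SE 1.32, adjusted p = 0.00271). Mb, myoglobin, was at 9.52, 14.33, 12.09, 11.84 and 11.91 in WT and at 6.81, 9.86, 6.55, 6.37 and 6.66 in SCC (-4.69, SE 0.91, adjusted p = 0.00219). There SCC replicate 2 alone reached the lungs, above WT replicate 1. Fabp3, the heart fatty acid binding protein, was at 11.70, 13.77, 12.76, 12.32 and 12.34 in WT and at 9.05, 9.76, 8.99, 9.36 and 8.97 in SCC. Its tumors lay close together and far under the lungs (-3.35, SE 0.34, adjusted p = 5.49e-05).

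The muscle forms of cytochrome c oxidase, the last enzyme of the respiratory chain, differed in how far they fell. Cox8b fell by 5.26 (SE 0.73, adjusted p = 0.000315), Cox6a2 by 2.62 (SE 0.41, adjusted p = 0.000608) and Cox7a1 by 1.57 (SE 0.40, adjusted p = 0.00897). Cox8b was not above background on SCC replicate 3, and under normexp the Cox8b difference was -3.33. For Cox7a1 the 5 tumors all lay between 10.08 and 10.64, and WT replicate 1, at 10.62, was within that span. Cox7a1 and Cox8b are also made by brown fat. Ckm, the cytosolic muscle creatine kinase, lay at 4.95 to 8.97 in WT and 4.22 to 6.61 in SCC and was not called (-1.55, SE 0.72, adjusted p = 0.0978). Without WT replicate 1 it was called lower, at -2.08 (adjusted p = 0.0213).

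Of the 2 heart transcription factor genes, Nkx2-5, a homeobox gene of early heart formation, was at 5.16, 7.53, 6.72, 5.73 and 5.96 in WT and at 5.09, 5.24, 5.00, 5.03 and 5.48 in SCC. The WT order was present and the tumors were nearly level (-1.05, SE 0.39, adjusted p = 0.0456), but the call was lost in 7 of the 10 fits that left out an array, with adjusted p from 0.0137 to 0.103. Tbx20, a T-box gene of the heart, was at 1.70, 6.20, 5.55, 4.62 and 4.08 in WT and between 1.81 and 3.73 in SCC. The same order of lungs was seen there, mostly at signals near the limit of detection.

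**Figure D3:**
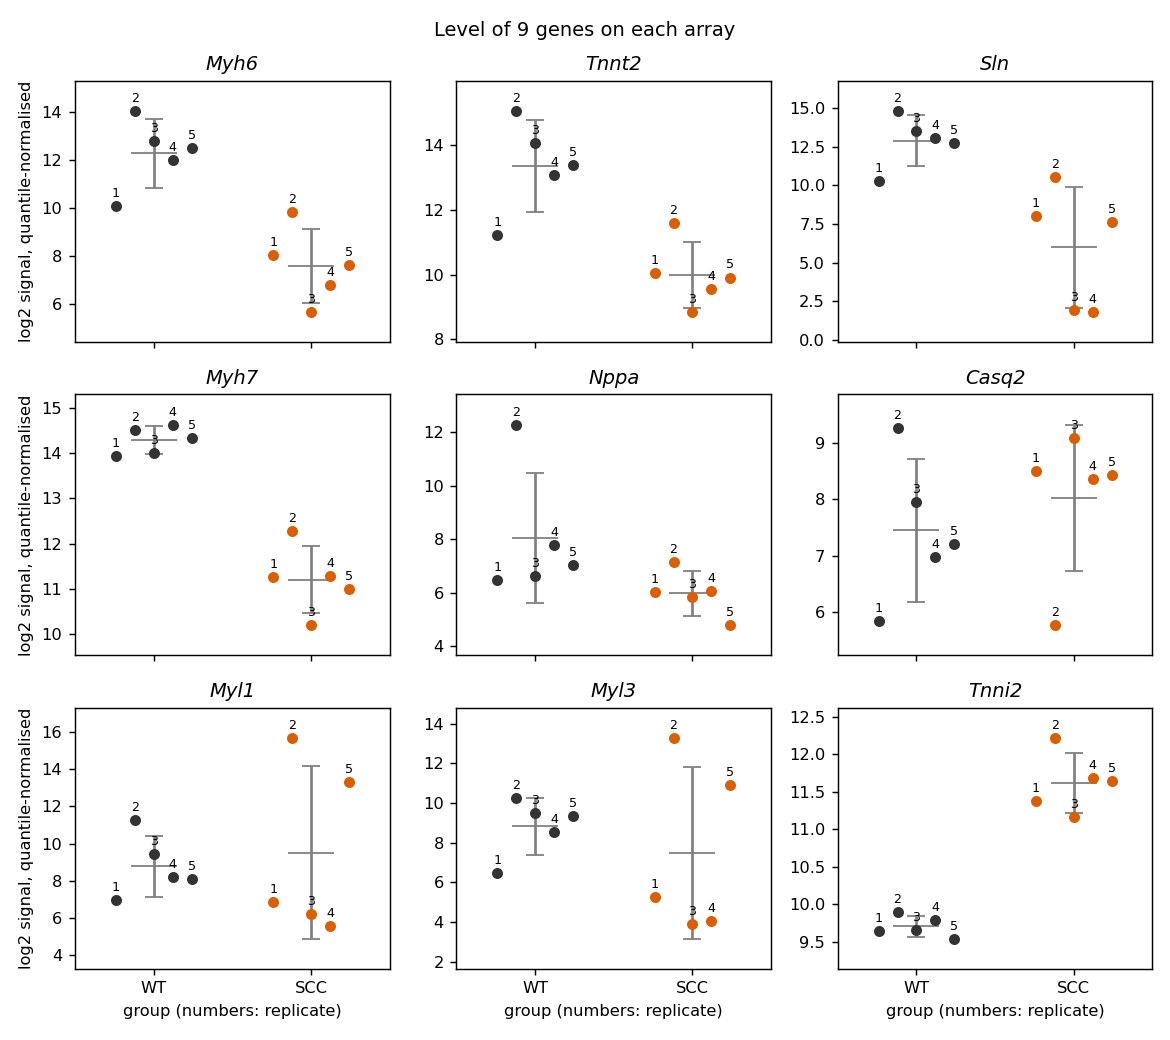
Log2 signal of 9 genes on each array, with WT in black and SCC in orange, the replicate number above each point, and the group mean with its SD (n = 5 each) in grey. Myh6, Tnnt2 and Sln show the WT order with replicate 2 on top and replicate 1 at the bottom, Myh7 is level in WT, and Myl1 and Myl3 are high in SCC replicates 2 and 5.

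The 2 essential light chain genes Myl1 and Myl3 ran against the rest in 2 tumors. Myl1, of fast skeletal muscle, read 6.96, 11.24, 9.45, 8.21 and 8.08 in WT, in the common order, but 6.84, 15.66, 6.22, 5.59 and 13.28 in SCC. SCC replicates 2 and 5 were thus above every lung and the other 3 tumors below every lung. Myl3, the essential light chain of the ventricle and slow skeletal muscle, repeated this with 6.47, 10.26, 9.48, 8.55 and 9.36 in WT and 5.28, 13.28, 3.90, 4.07 and 10.89 in SCC. Neither mean difference passed (Myl1 0.73, SE 1.98, adjusted p = 0.779, and Myl3 -1.34, SE 1.84, adjusted p = 0.566).

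A second Myl1 probe gave the same pattern, at 11.64 and 8.65 on SCC replicates 2 and 5 and 2.27 to 2.49 on the other tumors, whereas a second Myl3 probe did not. That Myl3 probe lay between 7.79 and 8.23 on all 5 tumors and differed by 0.62 (SE 0.13, adjusted p = 0.00316), under the 2-fold needed for a call. No other gene of the 42 was higher on both of these tumors than on all 8 remaining arrays. With SCC replicates 2 and 5 both left out, an alternative chosen after the data were seen, Myl1 was called lower (-2.57, adjusted p = 0.0277) and so was Myl3 (-4.41, adjusted p = 0.00126). The tumors marked by these light chains are the one closest to the WT arrays in its profile and the one with the most probes above background, and the part of either in the Myl1 and Myl3 values was not tested.

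**Figure D4:**
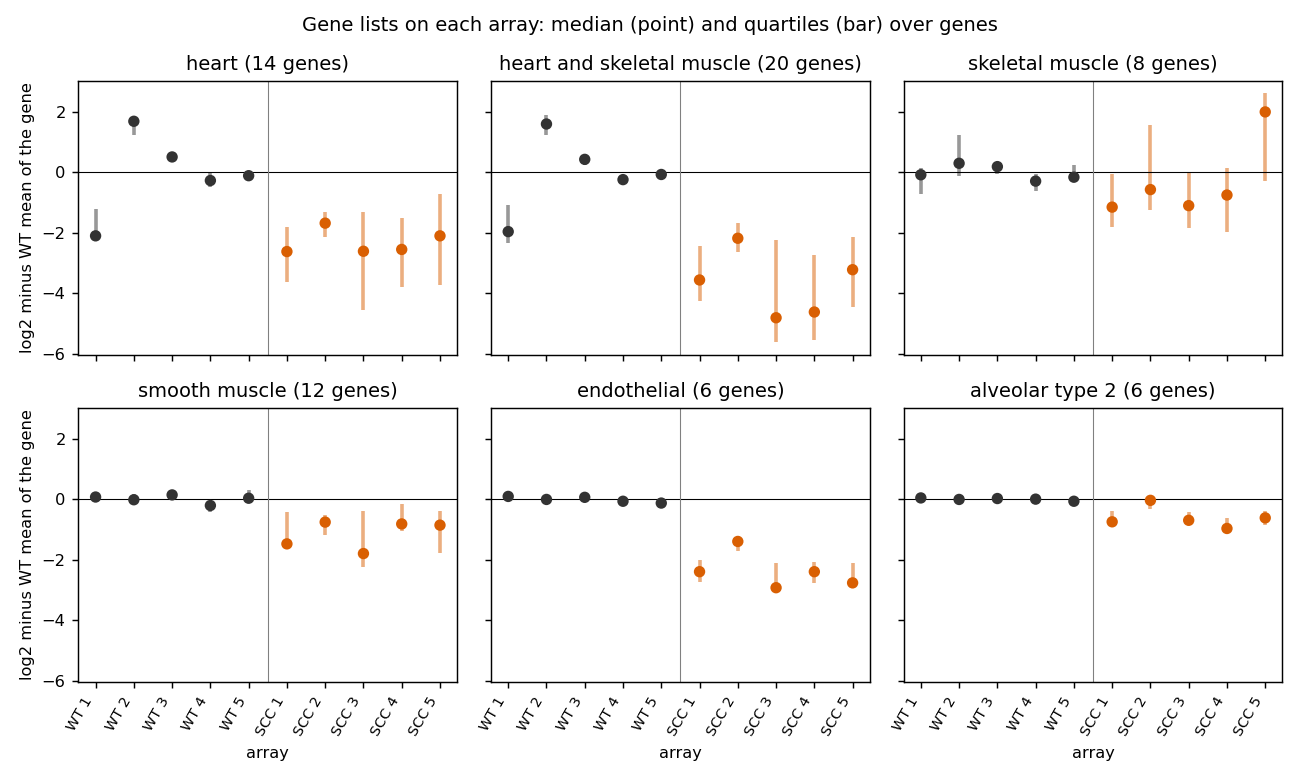
Median (point) and quartiles (bar) over genes of log2 signal minus the WT mean of the gene, for each array (WT black, SCC orange), for the heart, shared and skeletal muscle genes and for lists of smooth muscle, endothelial and alveolar type 2 genes. The medians of the heart and shared genes range from -2.10 to 1.69 over the WT arrays, whereas the medians in the 3 lower panels stay within 0.20 of zero in WT.

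Genes of the same muscles outside the 42 were read from lists drawn up by known function and tissue. Of 40 tested genes of a further heart list, 20 were called lower and 4 higher, with a median of -1.65, beside the 13.0% and 9.92% of all tested probes. The 4 called higher make up a share near that of all probes and are not a result about the list. The 3 lowest were Myoz2, a Z-disc calsarcin (-5.03), Xirp2, an actin-binding protein of cell junctions in heart muscle (-4.70), and Mybphl, a myosin-binding protein H relative (-4.65). All 3 were above background on every lung but on only 3, 2 and 3 of the 5 tumors, so their sizes and their rank rest in part on tumor values at the limit of detection. The genes called higher were Gja1, the gap junction connexin 43 (1.57), Rbm24, an RNA-binding protein (1.67), Fhl2, a LIM domain protein (2.38), and Corin, the protease that activates the atrial peptide (2.61). Of 24 tested genes of a further skeletal muscle list, 11 were called lower and none higher, with a median of -0.99, against the 13.0% of tested probes called lower. The 3 lowest were Myh4, the fast IIb myosin heavy chain (-5.26), Pgam2, the muscle phosphoglycerate mutase (-2.77), and Apobec2, a muscle deaminase relative (-2.63). Myh4 ran through the lungs in the same order as Myh6, at 8.51, 12.80, 11.66, 10.57 and 11.28, and it was above background on 3 of the 5 tumors, so the size of its fall too rests in part on undetected values.

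Among regulators of skeletal muscle on that list, Myod1 was low in both groups and not called (-0.33, SE 0.35, adjusted p = 0.45). Myf6 was called lower (-1.06, SE 0.31, adjusted p = 0.0181), but it was above background on 4 lungs and only 1 tumor. Myog, Myf5, Pax7 and Pax3 were too dim to be tested. Summed over the heart list, the linear signal, in units of 1000, ran from 15.4 to 165 over the lungs and from 10.9 to 14.2 over the tumors. For the shared list these sums were 32.2 to 190 and 5.45 to 25.7. In the skeletal list they were 3.15 to 22.3 and 2.87 to 57.8, the highest on SCC replicate 2, where Myl1 was brightest. The lungs thus overlapped the tumors in this sum for the skeletal list and not for the other 2 lists.

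Other cell types of the lung were read beside the muscle genes. Smooth muscle, which surrounds airways and vessels, was followed through 12 genes, of which 7 were called lower (median -1.20), beside 13.0% of all tested probes, with sums of 59.3 to 81.2 in WT and 33.8 to 48.2 in SCC. All 6 endothelial genes were called lower (median -2.42), beside the same 13.0%, with sums of 127 to 157 and 18.7 to 44.4. None of 6 alveolar type 2 genes was called (median -0.63), beside 13.0% of all tested probes called lower. Of the 6, 2 lay lower in every tumor than in every lung, as did 20.9% of all tested probes. So small a count is not a result about the list. The alveolar type 2 sums were 680 to 704 and 507 to 635, of which Sftpc, surfactant protein C, made up 64.7% to 75.9%. On 7 arrays, all 5 lungs included, Sftpc was the brightest probe and quantile normalisation gave it the same value, so the scaling fixes most of the sum there. Without Sftpc the sums were 225 to 248 and 127 to 179. In these 3 lists the median was level among the lungs, within 0.20 of the WT mean on every array. Single genes could vary more. In the smooth muscle list Hspb7 spanned 2.57 log2 units over the lungs, in the common order of the muscle genes. Cnn1 spanned 1.71, with WT replicate 5 highest. The part of fewer vessels or less smooth muscle in the fall of the heart genes was not tested.

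Genes of fat varied unequally among the lungs. Of 8 tested adipocyte genes, 6 were called lower and 1 higher in SCC, beside 13.0% and 9.92% of all tested probes, so that 1 higher of 8 is near the share of all probes. A WT span of at least 3 log2 units was seen for 3 of the 8, Adipoq (4.42), Cfd (4.42) and Retn (3.13), and the other 5 spanned 0.28 to 2.58. Adipoq, the fat cell hormone adiponectin, read 4.73, 9.14, 7.77, 6.82 and 8.49 over the WT arrays, with replicate 2 highest and replicate 1 lowest. Cfd and Retn were highest on WT replicate 5 and lowest on WT replicate 1. Over the 8 genes, WT replicate 2 was highest for 5, WT replicate 5 for 2 and WT replicate 1 for 1. Lep, the fat cell hormone leptin, was too dim to be tested. The adipocyte sums were 32.9 to 48.2 in WT and 15.4 to 82.9 in SCC. Ucp1, which defines brown fat, was too dim to be tested, and of the 5 tested genes of the brown fat list Cox7a1 and Cox8b were called lower and Cidea and Dio2 higher, beside the same 2 shares of all probes. The part of fat in the values of the energy genes was not tested.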

How the data were processed

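RNA of 5 WT lungs and 5 SCC had been hybridised to single-colour Agilent arrays. The authors deposited scanner files from Agilent Feature Extraction 12, which hold a background-subtracted processed intensity, median raw intensities and quality flags for each spot, and a matrix of log2 values, used here to choose 1 probe per gene and as an alternative. Following the methods, log2 processed intensities of 41174 probes were quantile-normalised after control and outlier spots were left out, and spots of a probe were averaged. Accessions were named through RefSeq, which gave 28223 probes (68.5%) a symbol. Probes well above background on at least 4 of the 5 arrays of a group were tested (30374) with limma 3.58.1 in R 4.3.3, two-sided, without covariates, in place of the one-way analysis of variance of the methods. Calls needed a Benjamini-Hochberg adjusted p below 0.05 and a 2-fold difference. The members and lists were chosen with earlier results of these data known. All 42 genes were described, and of the further heart and skeletal lists the 3 lowest genes and any called higher were named, with other genes named after their values were seen. The pipeline was tested on simulated data. Alternatives were 75th percentile scaling, normexp (offset 50) on the median signals, as no mean signal is in the files used here, filters on dim probes, slide and replicate blocks, array weights, the deposited matrix, the methods' test, other probes and leaving out arrays. The number of arrays limits the precision.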

Additional observations from a re-analysis of the deposited data

Results flagged for a closer look

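In 11 of the 84 groups of 5 values (42 genes, WT and SCC), 1 array stood apart, its gap to the nearest other array exceeding 0.71 of the whole range (Dixon's 95% limit). By chance about 1 in 20 independent groups would be marked, but these groups share the same 10 arrays and are not independent. The share of all tested probes marked by this rule was not counted. SCC replicate 5 was the high array in 6 of them: Myl2 (gap 0.782 of the range, 7.15 against 4.07 to 4.74), Acta1 (0.72, 8.05 against 7.56 to 7.70), Tnnt1 (0.73, 7.83 against 6.98 to 7.21), Tnnt3 (0.797, 8.42 against 4.21 to 5.07), Tnni1 (0.79, 6.63 against 4.84 to 5.22) and Tnnc2 (0.854, 8.96 against 6.15 to 6.56). All of these but Myl2 are skeletal muscle genes. SCC replicate 2 was the high array for Ttn (0.839, 7.30 against 4.38 to 4.85), Pln (0.716, 6.55 against 2.20 to 3.44) and Mb (0.873, 9.86 against 6.37 to 6.81). The same tumor was the low array for Casq2 (0.785, 5.76 against 8.37 to 9.09). WT replicate 2 was the high array for Nppa (0.771, 12.29 against 6.46 to 7.80).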

How the results depend on the processing

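All 29 genes called lower kept their sign in every alternative. Slide as a fixed block gave 0 heart genes, 2 shared genes and 0 skeletal genes called lower, with 2989 probes called in all. Slide 2 alone gave 0, 4 and 1, with 3350 probes, and the cause was not tested, beyond the single WT array these fits rest on. In both directions, normexp called 3969 probes, the adjusted p alone 14878 and the main setting 6954. Normexp called 1 of 8 skeletal genes lower and 1 higher, beside 6.78% and 6.28% of probes, and counts so small are not a result about the list. With a filter for probes above background on all 10 arrays, 9 of the 10 shared genes left to test were lower, beside 11.4% of probes. Leaving out SCC replicates 2 and 5, chosen after seeing the data, gave 4 skeletal genes lower, beside 13.9% of probes. Leaving out 1 array gave 6385 to 8135 probes called in both directions. Those fits called 9 or 10 heart genes, 16 to 18 shared genes and 2 or 3 skeletal genes lower, beside 11.7% to 15.3% of probes. Scaling to the 75th percentile moved the median over all tested probes from -0.09 to 0.03, and the share of calls that were higher from 43.3% to 53.2%. The 11 genes more than 16-fold lower, beside 0.254% of probes, became 1 under normexp (0.0362% of probes) and 4 of 28 under the strict filter (0.0975%). They became 17 with array weights (0.339%), 17 without SCC replicates 2 and 5 (0.385%), and 8 to 15 with 1 array left out (0.165% to 0.408%). Signs changed only for uncalled genes: Tnnc2 (normexp 0.01, and -0.59 to 0.11 with 1 array left out), Myl2 (slide as a block -0.05, slide 2 alone -0.05, and -0.07 to 0.70 with 1 array left out), Myl1 (array weights -2.40, without SCC replicates 2 and 5 -2.57, and -0.81 to 1.71 with 1 array left out) and Myl3 (second probe 0.62). The causes were not tested. Nkx2-5 lost its call in 16 of 24 alternatives and Ldb3 in 15. The replicate numbers did not pair the samples, since same-numbered arrays correlated at -0.103 to 0.009 in their deviations from the group means. With the replicate block, 6571 probes were called in both directions. There 9 heart genes, 17 shared genes and 2 skeletal genes were called lower, beside 12% of probes, and 2 skeletal genes were called higher, beside 9.58%. The lowest signal well above background was 3.81 to 4.32 on 9 arrays and 2.14 on SCC replicate 5, so the size of the falls in Sln, Pln, Ckmt2, Csrp3, Hrc, Actn2, Cox8b, Ttn and Tnnc1 is less certain than their direction. Related muscle genes are near copies, the probe sequences were not used here, and cross-reading between them was not tested.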

Other observations

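The order of the WT lungs (replicate 2 above 3, 3 above 4 and 5, and both above 1) together with a WT span of at least 3 log2 units was found for 70 tested probes, which carried 56 named genes, of which 21 were among the 42 genes, 14 were on the other lists and 21 were on none. Among the latter were Trim54, a ring finger protein of muscle (span 4.22), and Eef1a2, the elongation factor form of muscle and neurons (3.83). Trim54 and Eef1a2 were named for their link to muscle. Also among the genes on no list were Igsf1 (4.11), Adamts19 (3.86), Pla2g4e (3.48), Acsl6 (3.30), Mapk10 (3.29) and Alox15 (3.24).

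The Myl1 probe was searched for company, after its values were seen, by asking which probes read at least 2 log2 units higher on both SCC replicates 2 and 5 than on each of the other 8 arrays. There were 19 such probes (0.0626% of those tested), for 17 genes, and Myl1 was the only 1 of the 42 among them. The widest gaps were those of Reg1, a regenerating islet-derived lectin, at 17.15 and 15.11 against 3.70 to 6.20 on the other arrays, and of Tff1, a trefoil peptide of gastric mucus cells, at 17.89 and 15.96 against 4.83 to 9.77. Tff2, Vsig1 and Anxa10, all known from stomach epithelium, and Vil1 and Lgals4, known from gut epithelium, were also among the 17. Myl1 itself stood at 15.66 and 13.28 against 5.59 to 11.24.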
